A study of Mus musculus with 2 samples.

Results

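The presynaptic active zone scaffolds were followed as 9 genes, Rims1, Rims2, Rimbp2, Unc13a, Unc13b, Unc13c, Erc2, Bsn and Pclo, taken by symbol from the 30431 genes of the deposited count matrices. Nuclei came from the dorsal CA1 field of the hippocampus of male C57BL/6J mice carrying a Calb1::Cre driver and a Tdtomato reporter, and both groups shared that genotype. Mice of the epilepsy group, aged 6 to 7 weeks at treatment, received kainate at 5 mg/kg intraperitoneally every hour until status epilepticus, a state of continuous seizures, and diazepam at 4 mg/kg to end it. Control mice received saline or DMSO as vehicle and matching care. Tissue was taken 12 weeks later, in the chronic phase of epilepsy, from 4 slices per dissection, and 15000 sorted nuclei were loaded per sample and sequenced in droplets, where a unique molecular identifier (UMI) tags each captured transcript. There was 1 library per condition. The labels name 2 mice per condition and do not give how many of them a library holds, so no difference between conditions had a replicate check and no test between conditions was made. The labels name Calb1 as the driver of the Cre allele but do not say that nuclei were sorted by the reporter.

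The active zone is the patch of presynaptic membrane where synaptic vesicles dock and fuse. Its scaffold proteins bring vesicles, calcium channels and the release machinery together, and most of them bind several of the others. RIM proteins bind vesicle Rab proteins, Munc13 proteins and calcium channels. RIM-binding proteins link RIM to the channels, Munc13 proteins ready vesicles for fusion, and ELKS proteins such as the Erc2 product, with the very large proteins Bassoon and Piccolo, complete the scaffold. CA1 pyramidal neurons carry active zones on their axon terminals, outside the nuclei measured here, so the counts describe nuclear transcripts and not the protein at the synapse.

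All 9 genes are protein-coding in the GENCODE M21 annotation of GRCm38. Rims1 (ENSMUSG00000041670), the founding RIM gene, lies on the minus strand of chromosome 1 from 22286251 to 22805994, and its relative Rims2 (ENSMUSG00000037386) on the plus strand of chromosome 15 from 39198261 to 39684372. Rimbp2 (ENSMUSG00000029420), which encodes a RIM-binding protein, lies on the minus strand of chromosome 5 from 128757791 to 128953486. The Munc13 genes are Unc13a (ENSMUSG00000034799; chromosome 8, 71624417 to 71671757, minus), Unc13b (ENSMUSG00000028456; chromosome 4, 43058953 to 43264871, plus) and Unc13c (ENSMUSG00000062151; chromosome 9, 73479422 to 73968966, minus). Erc2 (ENSMUSG00000040640) lies on the plus strand of chromosome 14 from 27622428 to 28478537. Bsn, the Bassoon gene (ENSMUSG00000032589), lies on the minus strand of chromosome 9 from 108096022 to 108190384, and Pclo, the Piccolo gene (ENSMUSG00000061601), on the plus strand of chromosome 5 from 14514918 to 14863459. No listed gene overlapped any of them on the same strand. On the opposite strand Unc13a overlapped Colgalt1, with 313 UMIs over both libraries, and Pclo overlapped Gm26954, with 206. No source used here says how the counting treated strand, so Unc13a and Pclo carry that uncertainty.

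RefSeq promoter windows (GRCm38.p6, the 250 bases before the gene start) matched 8 of the 9 genes, all but Rims2. They were searched on both strands for the GC box (GGGCGG), the full cyclic AMP response element (TGACGTCA) and its TGACG part, which every full element also holds. GC boxes were in 32.7% of 32851 such windows, full elements in 1.55% and TGACG in 17.8%. The windows of Rims1, Unc13a, Unc13b, Unc13c and Pclo held a GC box, none of the 8 held a full element, and Unc13a held TGACG. The 3 genes shown are those whose level in CA1 pyramidal nuclei was higher in the epilepsy library beyond counting error, to let the windows be compared. Capitals mark the GC box, read on either strand; it occurs once in Unc13c (chr9:73969038-73969287, minus strand) and not in Bsn (chr9:108190384-108190633, minus strand) or Rimbp2 (chr5:128953487-128953736, minus strand). A match is a run of letters and not a measured site.
Unc13c: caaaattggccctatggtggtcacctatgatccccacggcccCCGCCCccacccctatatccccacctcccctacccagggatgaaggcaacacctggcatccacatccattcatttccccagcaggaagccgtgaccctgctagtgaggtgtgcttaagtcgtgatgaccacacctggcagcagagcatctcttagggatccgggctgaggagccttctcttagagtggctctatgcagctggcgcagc
Bsn: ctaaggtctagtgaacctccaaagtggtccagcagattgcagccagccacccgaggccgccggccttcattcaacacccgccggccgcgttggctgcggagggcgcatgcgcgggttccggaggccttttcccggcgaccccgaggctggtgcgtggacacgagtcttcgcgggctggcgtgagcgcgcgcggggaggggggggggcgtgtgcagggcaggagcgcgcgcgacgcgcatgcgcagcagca
Rimbp2: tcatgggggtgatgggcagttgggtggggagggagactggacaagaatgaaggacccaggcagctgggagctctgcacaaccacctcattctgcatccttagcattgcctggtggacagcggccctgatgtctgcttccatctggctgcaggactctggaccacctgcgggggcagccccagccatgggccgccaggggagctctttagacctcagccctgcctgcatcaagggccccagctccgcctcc

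The control library held 3661 nuclei and 11858162 UMIs, with a median of 3447 UMIs per nucleus, and the epilepsy library 3078 nuclei and 7112131 UMIs, with a median of 2443. After removal of likely doublets 3551 and 2986 nuclei were kept, and the libraries shared 16 cell barcodes. Nuclei were clustered without the 9 genes and their companion genes, and classes were named from marker genes, so each class name below stands for nuclei like that type. CA1 pyramidal nuclei (Slc17a7, Neurod6) numbered 2840 in the control library and 2335 in the other, as the labelled tissue names them. Of these, 501 and 361 were deep (high Ndst4, low Calb1), 968 and 813 superficial (the reverse), and 1371 and 1161 fitted neither. Among other listed deep markers, Col11a1 and Nr4a2 were high in deep nuclei, at log2 ratios of 3.12 and 1.38 to the other pyramidal nuclei. Sox5 (-0.96) and Enpp2 (-1.64) were low there. In the superficial clusters Enpp2 was at 0.53 and 1.06 and Sox5 at 0.94 and -1.51, so the sublayer names follow Ndst4 and Calb1 and not every listed marker. Interneurons (Gad1, Gad2, Erbb4) numbered 198 and 144, dentate granule nuclei (Prox1, Dsp) 154 and 14, and oligodendrocytes (Mbp, Mobp), used as a class that should lack the scaffolds, 174 and 258. Levels are CPM, the UMIs of a gene scaled to a fixed total of UMIs in that class and library. All intervals are 95% intervals that cover counting error only, Poisson for a level, conditional binomial for a log2 ratio and Clopper-Pearson for a share.

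In CA1 pyramidal nuclei Rims2 stood out as 1.75-fold lower in the epilepsy library, and Unc13c and Bsn were 1.66-fold and 1.28-fold higher. Rimbp2 was higher by less, Unc13b and Pclo were slightly lower, and the intervals of Rims1, Unc13a and Erc2 held 0. All 9 genes had the 200 UMIs required for a comparison. Past the fold threshold, a log2 ratio of 0.32 in size, 2 were higher, where 11.3% of the 7155 genes compared were, and 1 was lower, where 11.9% were. Over the 9 genes the log2 ratio of epilepsy to control had a median of 0.01, and over all genes compared of -0.01. The set as a whole was thus centred where all genes were, and the account below is one of single genes. With the stricter fold of 1.5, Unc13c (3.27% of genes higher) and Rims2 (2.5% lower) stayed past it.

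**Figure D1:**
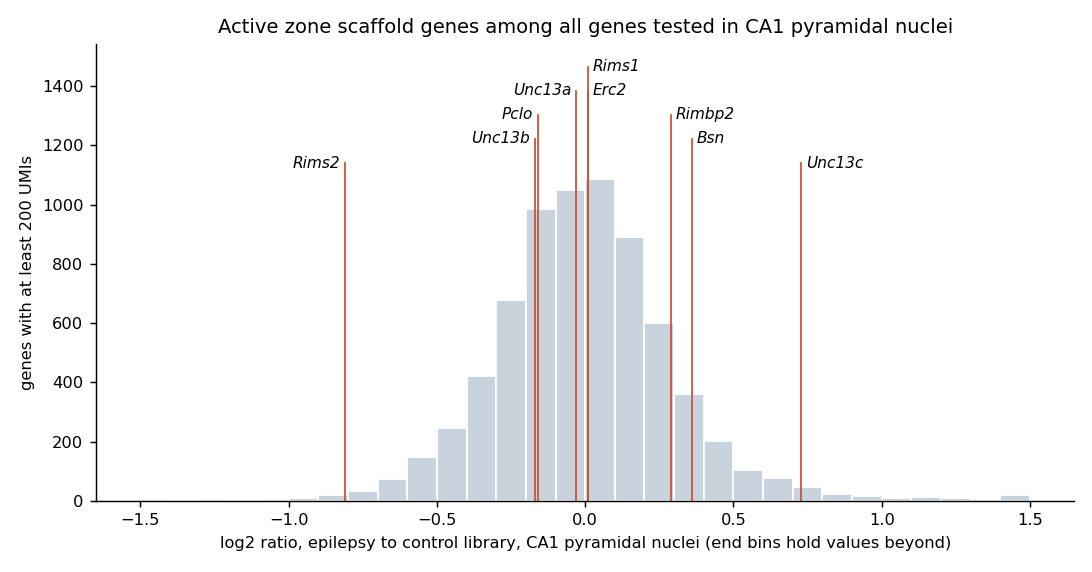
Number of genes (vertical axis) by log2 ratio of epilepsy to control in CA1 pyramidal nuclei (horizontal axis), for the 7155 genes with at least 200 UMIs; red lines mark the 9 scaffold genes. Rims2 lies at -0.81 in the lower tail and Unc13c at 0.73 in the upper one, while Rims1 and Erc2 both lie at 0.01.

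The RIM genes differed from each other. Rims1 was at 613 CPM in control and 617 CPM in epilepsy pyramidal nuclei (5964 and 3593 UMIs), a log2 ratio of 0.01 (-0.05 to 0.07). Rims2 was at 355 CPM in control and 203 CPM in epilepsy pyramidal nuclei (3453 and 1179 UMIs), a log2 ratio of -0.81 (-0.91 to -0.71). Only 48 of the 7155 genes compared, Rims2 included, had a ratio that low. The first gene was level between the pooled nuclei and the second was not. Within 3000 to 6000 UMIs per nucleus, a range taken up below, Rims1 was at 0.11 (0.03 to 0.20).

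The Rims2 difference was larger in superficial than in deep nuclei. In superficial nuclei Rims2 was at 408 CPM in control and 195 CPM in epilepsy nuclei, 2.09-fold lower, with a log2 ratio of -1.06 (-1.23 to -0.90). That was the eighth-lowest ratio of 3990 genes (8 at or below it). In deep nuclei it was at 274 CPM and 214 CPM, 1.28-fold lower, with a ratio of -0.35 (-0.60 to -0.11). The superficial ratio was lower than the deep one by 0.71 on the log2 scale (-1.06 against -0.35, a difference of -0.71), and the 2 counting intervals did not overlap, as for 11.9% of the 2042 genes with enough UMIs in both sublayers. With the pyramidal nuclei split instead at the median of a sublayer marker score, the ratios were -0.98 and -0.65, so the deep value depended on how deep nuclei were defined.

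The pyramidal nuclei fell into 8 clusters. One of them, with 86 and 79 nuclei, had the myelin genes Mag and Mal among its leading genes. Leading genes rank a cluster against the other pyramidal nuclei, so a shared pyramidal marker would not show there. The cluster with myelin genes is part of the pyramidal sums, and without it no pyramidal ratio of the 9 genes moved by more than 0.032. In the other 7 clusters Rims2 was lower in each, from -1.30 to -0.35, with 7 intervals below 0. The lowest ratio was in a cluster led by the immediate early genes Btg2, Fos, Nr4a3 and Egr3, which neurons transcribe after activity, at 411 CPM in control and 166 CPM in epilepsy nuclei. Without that cluster the pyramidal ratio was -0.76. In the cluster with myelin genes Rims2 had 30 and 13 UMIs and an interval that held 0. Without it and a cluster of low UMI counts (312 control and 235 epilepsy nuclei in all) the ratio was -0.81.

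Depth differed between the libraries, so pyramidal nuclei were also compared within ranges of UMIs per nucleus. The Rims2 ratio was -0.96 (-1.49 to -0.43) under 1500 UMIs, -0.65 (-0.83 to -0.48) from 1500 to 3000 and -0.71 (-0.85 to -0.57) from 3000 to 6000. It was thus below 0 in each range with more than a few nuclei; above 6000 UMIs, with 33 and 6 nuclei, its interval held 0. Thinned to 1000 UMIs, the share of superficial nuclei with a Rims2 UMI was 31.4% (28.5 to 34.5%) in the control and 16.0% (13.5 to 18.7%) in the epilepsy library, leaving out 4 and 12 shallower nuclei. In deep nuclei the thinned shares were 22.6% (19.0 to 26.5%) and 19.5% (15.5 to 24.0%), with overlapping intervals, leaving out 5 and 7. Unthinned shares were 70.8% and 37.1% in superficial and 59.7% and 39.6% in deep nuclei, at median depths of 3632.5, 2604, 3704 and 2627 UMIs. Oligodendrocytes, far shallower at medians of 794.5 and 595.5 UMIs, had unthinned shares of 8.62% and 5.04%.

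Rimbp2, the RIM-binding protein gene, went in opposite directions in the 2 sublayers. In all pyramidal nuclei it was at 297 CPM in control and 363 CPM in epilepsy nuclei, a log2 ratio of 0.29 (0.21 to 0.37). In superficial nuclei it was at 326 CPM and 459 CPM, 1.41-fold higher, with a ratio of 0.49 (0.37 to 0.62). In deep nuclei it was at 229 CPM and 177 CPM (415 and 164 UMIs), 1.30-fold lower, with a ratio of -0.38 (-0.65 to -0.11). Across the 2042 genes, 7% had separate intervals with opposite signs.

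The deep value of Rimbp2 rested on 1 cluster and on the definition of deep nuclei. Without the cluster with myelin genes, Rimbp2 was higher in 6 of 7 pyramidal clusters (interval above 0 in 3), and the deep cluster was the exception. Split at the median marker score, the deep ratio was 0.16. It was -0.14 with at least 500 detected genes per nucleus and -0.12 when nuclei were thinned to 1000 UMIs. The superficial ratio stayed between 0.39 and 0.60 over 11 alternatives. Within depth ranges the pyramidal ratio of Rimbp2 was 0.31 (-0.08 to 0.70) under 1500 UMIs, 0.07 (-0.08 to 0.22) from 1500 to 3000 and 0.23 (0.10 to 0.35) from 3000 to 6000, and in the first 2 the interval held 0. The thinned share of superficial nuclei with a Rimbp2 UMI was 28.0% (25.2 to 31.0%) in the control and 38.6% (35.2 to 42.0%) in the epilepsy library, and 18.8% and 17.8% in deep nuclei; unthinned shares were 66.9%, 65.6%, 54.1% and 35.7% in that order, against 4.60% and 5.81% in oligodendrocytes.

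The Munc13 genes, which encode vesicle priming factors, showed no common direction. Unc13a, the main form at excitatory forebrain synapses, was at 236 CPM in control and 231 CPM in epilepsy pyramidal nuclei, a log2 ratio of -0.03 (-0.13 to 0.07). It was at 202 and 176 CPM in superficial nuclei (-0.20, -0.39 to -0.02) and at 253 and 289 CPM in deep nuclei (0.19, -0.04 to 0.41). Unc13b was at 143 and 127 CPM in pyramidal nuclei, a ratio of -0.17 (-0.30 to -0.04), which became -0.03 when nuclei were thinned to 1000 UMIs. Neither gene passed the fold threshold in pyramidal, deep or superficial nuclei as a whole. Within depth ranges the pyramidal ratio of Unc13a was 0.20 (-0.22 to 0.62) under 1500 UMIs, -0.40 (-0.57 to -0.24) from 1500 to 3000 and -0.15 (-0.31 to 0.005) from 3000 to 6000, so that it was past the fold threshold lower in the middle range while the pooled ratio was near 0. One of the superficial clusters was past it as well, at -0.37 (-0.63 to -0.10). Unc13b was at -0.51, -0.11 and -0.29 in the 3 ranges, with an interval below 0 in the last (-0.49 to -0.09).

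Unc13c, a relative best known from the cerebellum, had few counts, with 343 UMIs over all nuclei of both libraries. In pyramidal nuclei it was at 12.3 and 20.4 CPM (120 and 119 UMIs, control first), a log2 ratio of 0.73 (0.35 to 1.11). Its ratio was above 0 in the 7 clusters that gave one, the interval lying above 0 in 3; in the cluster with myelin genes the control count was 0. In deep nuclei it had 16 and 20 UMIs and in superficial nuclei 65 and 52, under the 200 required, with ratios of 1.29 (0.26 to 2.33) and 0.41 (-0.14 to 0.96). Unc13c was higher in interneurons, at 36.2 and 51.2 CPM, than in pyramidal nuclei, and the 7 interneuron markers summed to 421 and 497 CPM in pyramidal nuclei, with none at 0. The 6 oligodendrocyte markers summed to 80.3 and 126 CPM in the same nuclei, and oligodendrocytes had 1 and 2 Unc13c UMIs. The part of such transcripts in the Unc13c difference was not tested. Thinned to 1000 UMIs the ratio was 0.86.

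Erc2, the gene of an ELKS family scaffold, was level between the libraries in the pooled pyramidal nuclei. It was at 1342 CPM in control and 1351 CPM in epilepsy pyramidal nuclei, with 20919 UMIs over both, and its ratio of 0.01 (-0.03 to 0.05) had the narrowest interval of the 9. The ratio was -0.04 (-0.10 to 0.03) in superficial and 0.12 (-0.01 to 0.25) in deep nuclei. No cluster's interval excluded 0 in pyramidal nuclei, and without the cluster with myelin genes the ratios ran from -0.18 to 0.12. Within depth ranges Erc2 was at -0.12 (-0.34 to 0.10) under 1500 UMIs, -0.06 (-0.14 to 0.02) from 1500 to 3000 and 0.11 (0.05 to 0.17) from 3000 to 6000, the last with an interval above 0.

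The Bassoon and Piccolo genes, which encode the largest scaffold proteins, went in opposite directions. Bsn was at 135 CPM in control and 173 CPM in epilepsy pyramidal nuclei, a log2 ratio of 0.36 (0.24 to 0.48). It was at 131 and 175 CPM in deep nuclei (0.42, 0.12 to 0.71) and at 135 and 157 CPM in superficial nuclei (0.21, 0.01 to 0.42). Without the cluster with myelin genes (12 epilepsy and 8 control UMIs), the Bsn ratio was above 0 in 7 of 7 pyramidal clusters, from 0.12 to 0.49, with 4 intervals above 0. It lay just past the fold, and with trimmed-mean scaling, which moved all pyramidal ratios by -0.08, it was 0.28 and no longer past it. Within depth ranges the Bsn ratio was 0.64 (0.10 to 1.21) under 1500 UMIs, 0.09 (-0.13 to 0.31) from 1500 to 3000 and 0.23 (0.04 to 0.41) from 3000 to 6000, so the 2 deeper ranges were below the pooled value.

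Pclo was at 355 CPM in control and 318 CPM in epilepsy pyramidal nuclei, a log2 ratio of -0.16 (-0.24 to -0.08). It was at 319 and 266 CPM in deep nuclei (-0.26, -0.48 to -0.05) and at 379 and 371 CPM in superficial nuclei (-0.03, -0.16 to 0.10). Without the cluster with myelin genes (23 epilepsy and 40 control UMIs), the Pclo ratio was below 0 in 7 of 7 pyramidal clusters, from -0.49 to -0.01, with 3 intervals below 0. Within depth ranges it was -0.58 (-1.01 to -0.15) under 1500 UMIs, -0.18 (-0.33 to -0.02) from 1500 to 3000 and -0.12 (-0.24 to 0.01) from 3000 to 6000. The difference was small and within the fold threshold in the pyramidal nuclei as a whole. The clusters are parts of the same libraries, so their shared direction does not replicate it.

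**Figure D2:**
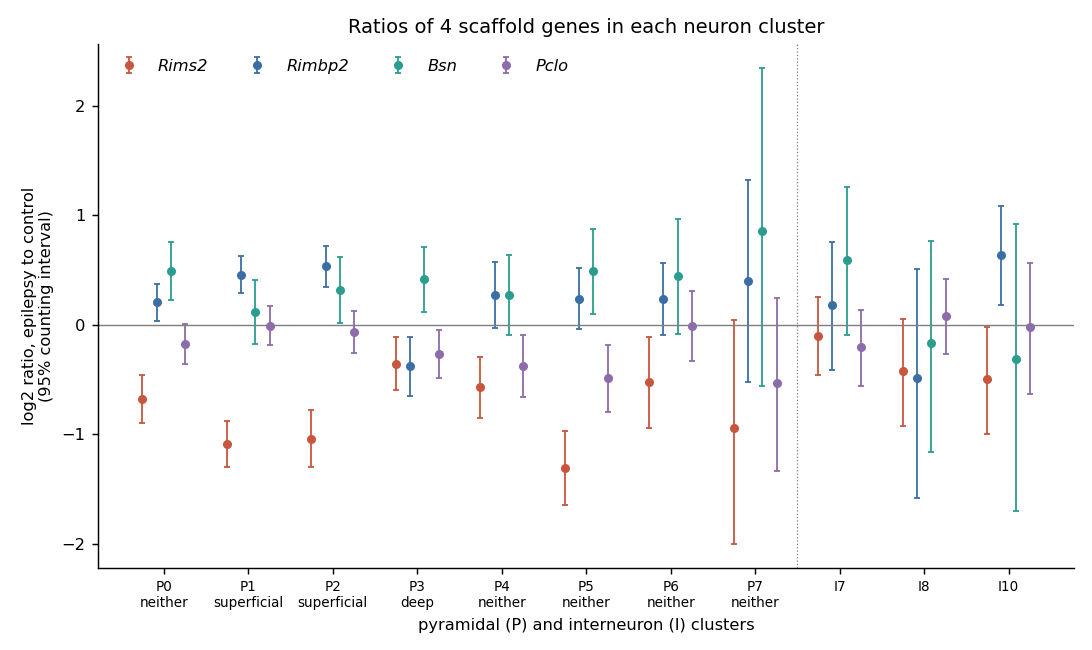
Log2 ratio of epilepsy to control (vertical axis, bars are 95% counting intervals) of Rims2, Rimbp2, Bsn and Pclo in the 8 pyramidal clusters (P) and 3 interneuron clusters (I). Rims2 lies below 0 in all 11 clusters and Bsn above 0 in the 8 pyramidal ones, while Rimbp2 is below 0 in the deep cluster P3 and in I8; P7 is the cluster with myelin genes.

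Some of the genes passed the fold threshold within each sublayer. In deep nuclei 8 of the 9 genes had 200 UMIs; Bsn was past the fold threshold higher (11.7% of 2065 genes were) and Rims2 and Rimbp2 were past it lower (12.7%), and at 1.5-fold 0 were higher or lower (2.62% and 3.15% of genes). In superficial nuclei 8 were compared as well; Rimbp2 was past the fold threshold higher (12.4% of 3990 genes) and Rims2 past it lower (10.7%), and at 1.5-fold Rims2 alone was past it (2.91% of genes higher, 2.03% lower). The median log2 ratio of the genes compared was -0.09 in deep and -0.04 in superficial nuclei, against -0.01 and 0.02 over all genes.

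In interneurons Rims2 was again lower, by less. It was at 729 CPM in control and 594 CPM in epilepsy nuclei (483 and 197 UMIs), a log2 ratio of -0.30 (-0.54 to -0.05), which did not reach the fold threshold. The other 8 genes had intervals that held 0. Of the 6 genes with 200 UMIs, 0 were past the fold threshold higher, where 10.6% of 800 genes were, and 0 past it lower, where 10.1% were; at 1.5-fold it was again 0 and 0 (2.62% and 2.12%). Rims2 passed it in interneurons with trimmed-mean scaling (-0.36), with every nucleus weighted equally (-0.50) and with thinning to 1000 UMIs (-0.61). The thinned share of interneurons with a Rims2 UMI was 54.3% (46.9 to 61.6%) in the control and 36.0% (28.0 to 44.7%) in the epilepsy library, leaving out 12 and 8 nuclei; the unthinned shares were 83.8% and 63.2%.

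The 3 interneuron clusters differed in the levels of the scaffold genes. A cluster with Sst, Lhx6 and Sox6 (84 and 58 nuclei) had Rims1 at 987 and 952 CPM, and a cluster with Adarb2, Cnr1 and Npas1 (61 and 49 nuclei) had it at 1057 and 1210 CPM. A cluster with lower Adarb2, led by Sv2c and Egfr (53 and 37 nuclei), had Rims1 at 2822 and 3017 CPM. In that cluster Rimbp2 was at 597 CPM in control and 929 CPM in epilepsy nuclei, with 99 and 73 UMIs and a log2 ratio of 0.64 (0.18 to 1.09), against 232 and 262 CPM in the Sst cluster and 167 and 119 CPM in the Cnr1 cluster. Pclo ran the other way in the control library, at 464 CPM in the Sv2c cluster, 749 CPM in the Sst cluster and 1078 CPM in the Cnr1 cluster. Rims2 was below 0 in 3 of 3 clusters, at -0.10 (Sst), -0.43 (Cnr1) and -0.50 (Sv2c), with 1 interval below 0, that of the Sv2c cluster.

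**Figure D3:**
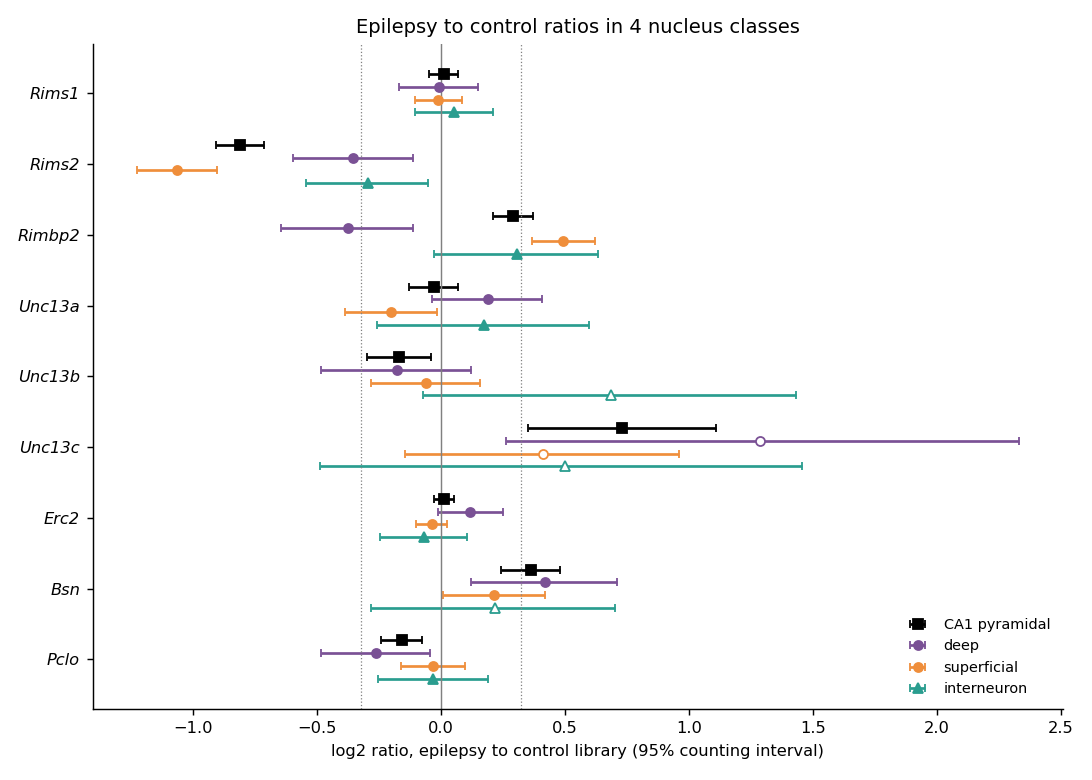
Log2 ratio of epilepsy to control (horizontal axis, bars are 95% counting intervals) of the 9 genes in CA1 pyramidal, deep, superficial and interneuron nuclei; open symbols have under 200 UMIs and dotted lines mark the fold threshold. Rims2 is at -0.81, -0.35, -1.06 and -0.30 in those classes, and the deep and superficial symbols of Rimbp2 lie on opposite sides of 0.

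The order of 4 neuron classes (deep, superficial, interneuron and granule nuclei) differed from gene to gene in the control library. CA2/CA3 pyramidal nuclei, 18 in that library, were not placed in the order and are given further on. Rims1 was highest in interneurons (1466 CPM, 1375 to 1561) and granule nuclei (1421 CPM, 1290 to 1562), which did not differ beyond counting error, then in superficial (690.1 CPM) and deep nuclei (539 CPM). That interneuron level was uneven, at 2822 CPM in the Sv2c cluster. The Sst (987 CPM, 880 to 1104) and Cnr1 clusters (1057 CPM, 914 to 1216) lay below granule nuclei beyond counting error. Rims2 was highest in interneurons (729 CPM), then in superficial nuclei (408 CPM), and its levels in granule (316 CPM) and deep nuclei (274 CPM) overlapped. Pclo was highest in interneurons (770.1 CPM), followed by superficial (379 CPM), deep (319 CPM) and granule nuclei (270.3 CPM), the last 2 overlapping. In the Sv2c cluster alone Pclo (464 CPM, 366 to 580) overlapped the superficial level. These 3 genes shared interneurons as a class of high level.

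Erc2 and Rimbp2 had granule nuclei in first place in the control library. Erc2 was at 2773 CPM (2588 to 2967) there, 1622 CPM in superficial nuclei, 1256 CPM in interneurons and 737 CPM in deep nuclei, with each step beyond counting error. Rimbp2 was at 448 CPM (376 to 530.4) in granule nuclei, and its levels in superficial nuclei (326 CPM) and pooled interneurons (305 CPM) overlapped above the deep level (229 CPM). That interneuron level was uneven. The Sv2c cluster was at 597 CPM (485 to 727), which overlapped the granule level. The Sst (232 CPM, 181 to 292) and Cnr1 clusters (167 CPM, 114 to 237) overlapped the deep level (208 to 252). Bsn ran from 181 CPM in granule nuclei through 148 CPM in interneurons and 135 CPM in superficial nuclei to 131 CPM in deep nuclei, with every neighbour overlapping.

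Of the 4 classes, deep nuclei had the highest Unc13a and Unc13b levels. Unc13a was at 253 CPM (231 to 278) in deep nuclei, and superficial nuclei (202 CPM), interneurons (198 CPM) and granule nuclei (158 CPM) followed with overlapping neighbours. Unc13b was at 165 CPM in deep and 134 CPM in superficial nuclei, which overlapped, and at 62.6 CPM in granule nuclei and 54.4 CPM in interneurons, which overlapped too. Unc13c was at 36.2 CPM in interneurons, 18.7 in superficial, 13.2 in granule and 8.83 in deep nuclei, each overlapping the next. In oligodendrocytes the control levels of the 9 genes ran from 6.50 CPM (Unc13c) to 208 CPM (Pclo), and the neuron classes named above exceeded them beyond counting error except for Unc13c, for Pclo in granule nuclei, for Unc13b in interneurons and granule nuclei, and for Unc13a in granule nuclei. Other non-neuronal classes were not all as low. In 36 control microglia Erc2 was at 1306 CPM, Rims1 at 648 CPM, Rimbp2 at 399 CPM and Pclo at 369 CPM, each overlapping the control CA1 pyramidal level. In 28 control astrocytes Erc2 was at 600 CPM and Rims1 at 200 CPM. The source of these transcripts was not tested, so oligodendrocytes do not stand for every non-neuronal class. Levels of different genes were not ranked against each other.

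**Figure D4:**
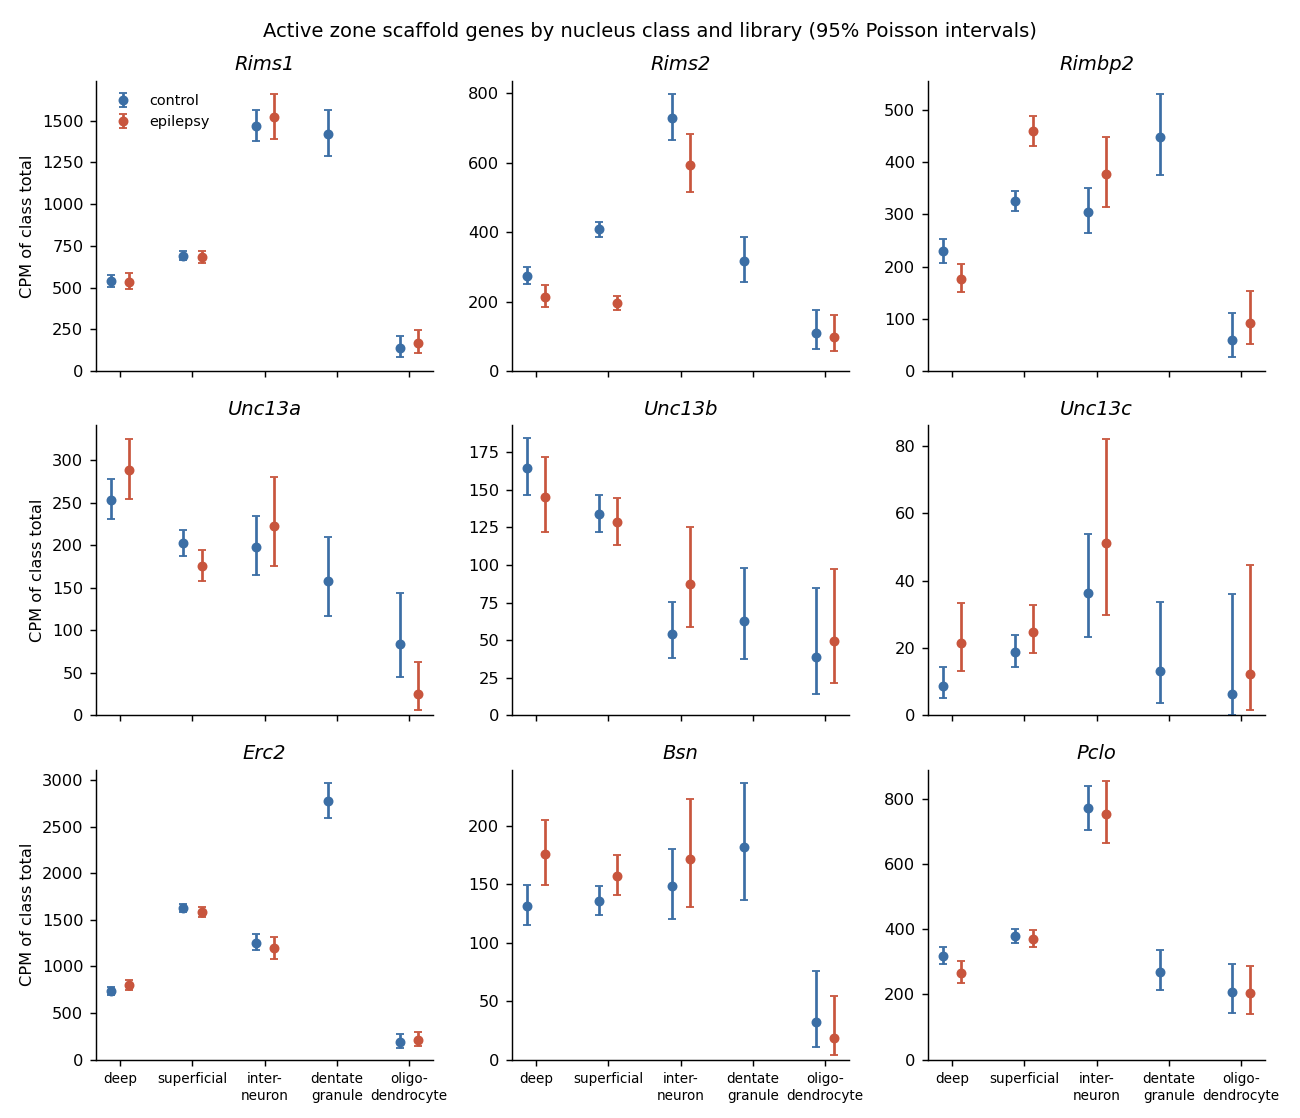
Level of each gene in CPM of the class total (vertical axes, each starting at 0) in deep, superficial, interneuron, dentate granule and oligodendrocyte nuclei of the control (blue) and epilepsy (red) libraries, with 95% Poisson intervals; granule nuclei of the epilepsy library (14) are not drawn. Rims2 is at 408 CPM in control and 195 CPM in epilepsy superficial nuclei, and Erc2 is highest in granule nuclei at 2773 CPM.

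Set against all control pyramidal nuclei, interneurons had log2 ratios of 1.26 (1.16 to 1.36) for Rims1, 1.12 (0.978 to 1.2499) for Pclo, 1.04 (0.90 to 1.18) for Rims2 and -1.40 (-1.92 to -0.92) for Unc13b. These 3 higher and 1 lower were the genes past the fold threshold of 8 compared, where 32.7% of 5975 genes were higher and 29.1% lower. In the epilepsy library the ratios were 1.30, 1.24, 1.55 and -0.54, again 3 higher and 1 lower of 8 (30.2% and 32.9% of 4277 genes). Granule nuclei had ratios to control pyramidal nuclei of 1.21 for Rims1, 1.05 for Erc2, 0.60 for Rimbp2 and 0.43 (0.01 to 0.82) for Bsn, and of -1.19 for Unc13b, -0.58 for Unc13a and -0.40 for Pclo. These were 4 higher and 3 lower of 8 compared (32.5% and 28.2% of 5791 genes). The epilepsy library had 14 granule nuclei with 12734 UMIs, in which the genes had from 0 (Unc13b) to 42 (Erc2) UMIs, and no ratio between conditions was taken there. CA2/CA3 pyramidal nuclei (18 and 52) had Rims1 at 1925 and 1977 CPM, Erc2 at 2186 and 2369 CPM and Rims2 at 393 and 353 CPM, in each case with overlapping intervals. In the control library their Rims1 level (1626 to 2262) was above that of pooled interneurons and of granule nuclei. It was below that of the Sv2c interneuron cluster (2822 CPM, 2572 to 3090). Bsn at 262 CPM (159.9 to 404) was above superficial and deep nuclei. Unc13b at 236 CPM (139.7 to 372) overlapped the deep level.

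Superficial and deep nuclei of the same library share their preparation, and their ratio was read in each library apart. In the control library Erc2 was higher in superficial nuclei, with a log2 ratio of superficial to deep of 1.14 (1.05 to 1.23), followed by Rims2 at 0.57 (0.43 to 0.73), Rimbp2 at 0.51 (0.35 to 0.67), Rims1 at 0.36 (0.25 to 0.47) and Pclo at 0.25 (0.11 to 0.39). Unc13a at -0.32 (-0.50 to -0.15) and Unc13b at -0.30 (-0.51 to -0.08) were higher in deep nuclei, and Bsn at 0.04 (-0.18 to 0.28) held 0. Of 8 genes compared, 4 were past the fold threshold higher (19.8% of 3783 genes) and 1, Unc13a, was past it lower (13.1%), by a margin so small that several alternatives removed it. At 1.5-fold Erc2 alone was higher (7.77% of genes) and 0 were lower (5.63%). The median was 0.30 over the 8 genes and 0.05 over all genes.

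In the epilepsy library Rimbp2 had the highest ratio of superficial to deep, 1.38 (1.14 to 1.63), and Rims2 no longer differed between the sublayers beyond counting error, at -0.14 (-0.38 to 0.12). Erc2 was at 0.98 (0.87 to 1.10), Pclo at 0.48 (0.27 to 0.69) and Rims1 at 0.36 (0.21 to 0.51). Unc13a was at -0.71 (-0.95 to -0.48), Unc13b at -0.18 and Bsn at -0.16, the last 2 with intervals that held 0. Of 8 genes, 4 were past the fold threshold higher (27.8% of 2355 genes) and 1 past it lower (17%). At 1.5-fold these were 2, Rimbp2 and Erc2, and 1, Unc13a (13% and 8.54% of genes). Split at the median marker score instead, the ratios were smaller, at 0.50 for Rimbp2 and 0.38 for Erc2 in the epilepsy library and 0.16 for Rims2 and 0.49 for Erc2 in the control library.

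**Figure D5:**
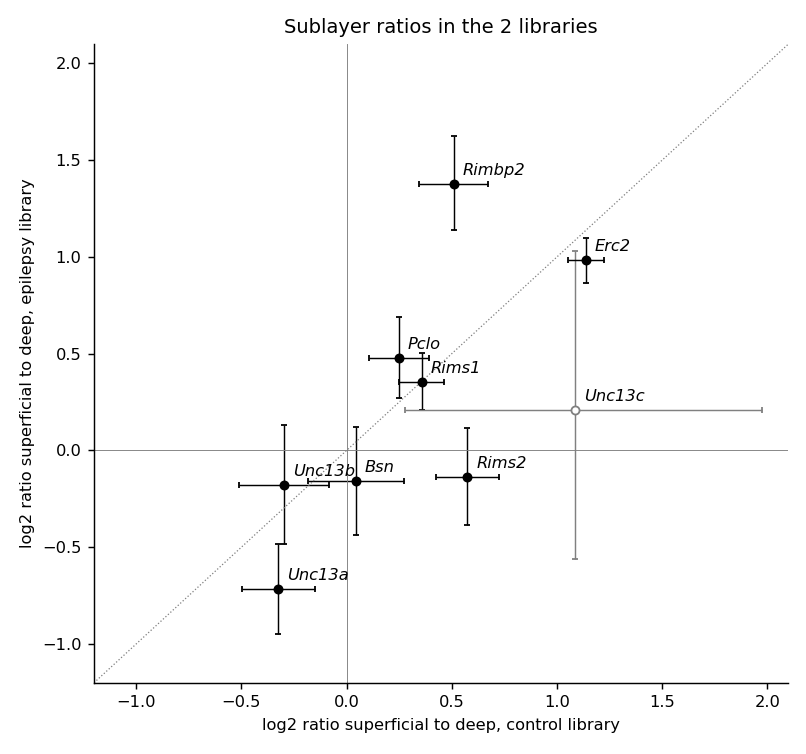
Log2 ratio of superficial to deep nuclei in the control (horizontal axis) and epilepsy library (vertical axis) for the 9 genes, with 95% counting intervals; the dotted line marks equal ratios and the open symbol, Unc13c, has under 200 UMIs. Rims2 lies below the line (0.57 and -0.14) and Rimbp2 above it (0.51 and 1.38), while Erc2 and Rims1 lie near it.

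The partners of the scaffolds were taken from 3 lists. Of 30 listed active zone partners (liprins, neurexins, receptor phosphatases and adaptors), 22 could be compared in pyramidal nuclei. Of these 2 were past the fold threshold higher and 1 past it lower, beside the 11.3% and 11.9% of all genes given above. The liprin genes, whose products bind RIM and ELKS proteins, went in both directions: Ppfia3 was at 75.8 and 109 CPM, a log2 ratio of 0.52 (0.36 to 0.67), and Ppfia2 at 817 and 632 CPM, a ratio of -0.37 (-0.43 to -0.31). Ppfia2 was lower in deep (-0.48), superficial (-0.27) and interneuron nuclei (-0.30) too, all with intervals below 0. Nrxn2, which encodes a presynaptic adhesion molecule, was at 69.6 and 96.9 CPM (0.48, 0.31 to 0.64).

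Presynaptic calcium channel subunits, which RIM and RIM-binding proteins hold at the release site, ran from -0.14 to 0.24 in pyramidal nuclei, with a median of 0.08. Of 10 listed, 9 were compared and 0 were past the fold threshold in either direction there, where 11.3% of all genes were higher and 11.9% lower. Cacna1a, the pore subunit of P/Q-type channels, was at 953 and 1126 CPM (0.24, 0.19 to 0.29), and in superficial nuclei at 906 and 1180 CPM (0.38, 0.30 to 0.46). In superficial nuclei it was past the fold threshold higher, 1 of 8 subunits compared, where 12.4% of all genes were. Cacna2d1, an auxiliary subunit, was at 749 and 678 CPM (-0.14, -0.20 to -0.09). Of 27 listed vesicle docking and fusion genes, 20 were compared in pyramidal nuclei, with 0 past the fold threshold higher and 1 lower (11.3% and 11.9% of all genes). That gene was Rab3a, the vesicle GTPase to which RIM proteins bind, with 163 and 52 UMIs at 16.8 and 8.93 CPM (-0.91, -1.39 to -0.45). Stxbp5l, a tomosyn gene whose product restrains vesicle priming, was at 762 and 612 CPM (-0.31, -0.37 to -0.26).

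The genes most like Rims2 over 6 sums (deep, superficial and interneuron nuclei of both libraries), by the distance between centred log2 CPM profiles among 6734 genes, were Tmem117, Nyap2 and Mpc1. Tmem117 was at 62.3 and 41.7 CPM in superficial and 135.9 and 105.5 CPM in interneuron nuclei. Those nearest to Unc13c were Sycp2, Fkbp4 and Tmem145, with Sycp2 at 9.94 and 26.9 CPM in deep nuclei. The 6 sums share libraries and depth, so these are descriptions of level.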

How the data were processed

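The deposited files hold whole-number UMI counts per gene and nucleus, with no normalization by the authors. They came from Cell Ranger 2.2.0 on GRCm38 (mm10), with FastQC, per the submitters' processing notes. Barcode selection, annotation and the treatment of intronic reads are not given in the sources used. A minimum of 200 detected genes and a limit of 5% mitochondrial UMIs per nucleus removed 0 nuclei. Scrublet (scanpy 1.11.5) marked 4 control and 3 epilepsy nuclei, too few to rely on, so the 3% with the highest score per library were removed (110 and 92). The 2000 most variable genes, without the 9 genes and 68 companions, gave 30 principal components per library-standardised data and Leiden clusters (leidenalg 0.10.2, resolution 1.0, 20 neighbours). A cluster took a class name from 3 or more markers at 20 CPM and 2-fold. Sublayers needed 2-fold Ndst4, Calb1 the other way and 1 further marker past 0.32 on the log2 scale. UMIs were summed per class and library, and genes with 200 UMIs over both arms were compared. The genes named are all 9 and, per companion list, the 2 highest and 2 lowest ratios by interval bound in pyramidal nuclei, except 1 that is not reported here. Alternatives covered filtering, doublets, clustering, trimmed-mean scaling (edgeR 4.0.16, R 4.3.3), weighting, depth, thresholds and sublayer definition. The genes, lists and markers were chosen with earlier results of these data known. The ratio code was tested on simulated data.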

Additional observations from a re-analysis of the deposited data

Results flagged for a closer look

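Rimbp2 had opposite directions in the 2 sublayers under the same comparison of epilepsy with control: its log2 ratio was 0.49 in superficial and -0.38 in deep nuclei, and the counting intervals did not overlap. Separate intervals with opposite signs were found for 7% of the 2042 genes with enough UMIs in both sublayers. Split at the median marker score, the deep ratio was 0.16, so its direction depended on how deep nuclei were defined. With 1 library per condition the difference was not tested.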

How the results depend on the processing

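Of 585 values of single genes under 16 alternatives, 558 stayed inside the main counting interval, 26 left it with no change of direction in a ratio past the fold, and 1 ratio past the fold with an interval clear of 0 reversed: Rimbp2 in deep nuclei, at 0.16 with the split at the median marker score. In all 25 values changed sign, and all but that one belonged to ratios whose main interval held 0. The cause was not tested. Rims2 kept a ratio below 0 in pyramidal (-0.89 to -0.76), deep (-0.65 to -0.30), superficial (-1.16 to -0.98) and interneuron nuclei (-0.61 to -0.21). Trimmed-mean factors shifted all ratios by -0.09 to -0.03, which put the pyramidal median of the 9 genes at -0.075 and left 1 past the fold threshold higher.

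Counts of genes past the fold changed as follows. In pyramidal nuclei 1 gene was higher with nuclei of 1500 to 6000 UMIs, with a minimum of 1000 UMIs per gene and at 1.5-fold. In deep nuclei 1 was lower with 500 detected genes, thinning to 1000 UMIs or the median split, 0 with the 1000-UMI minimum or 1.5-fold, and 0 were higher at resolution 0.5, with thinning, the 1000-UMI minimum or 1.5-fold. In superficial nuclei 2 were higher with the scaffold genes kept in clustering, thinning, a minimum of 50 UMIs or the median split, and 0 at 1.5-fold. In interneurons 1 was lower with trimmed-mean factors, equal weights or thinning, and 1 higher with nuclei of 1500 to 6000 UMIs or the 50-UMI minimum. For superficial against deep control nuclei 2 were lower with doublets kept or trimmed-mean factors, 0 at resolutions 0.5 and 2.0, with the scaffold genes kept in clustering, thinning, 1500 to 6000 UMIs, 1.5-fold, the median split or without the low-UMI and glial-gene clusters, and 1 was higher at 1.5-fold or with the median split. In epilepsy nuclei 2 were higher at 1.5-fold or with the median split, 2 were lower with thinning, 0 were lower with the 1000-UMI minimum, and that minimum gave a median of 0.73. Counts this small move when 1 gene crosses the fold.

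The alternatives without the low-UMI and glial-gene clusters, without the glial-gene cluster alone and without the immediate early gene cluster were chosen after seeing the data. No paired analysis was possible because each condition has 1 library. Depth limits Unc13c in the sublayers and all comparison of granule nuclei between conditions.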
